A study of Mus musculus with 16 samples.

Results

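A set of 6 genes of muscle wasting was followed in fed and fasting mice: the ubiquitin ligase genes Fbxo32, Trim63, Fbxo30, Fbxo31 and Fbxo21, and Mstn, which encodes the growth inhibitor myostatin. They were found in the table of counts by their gene identifiers and make up 6 of its 55385 genes. All 6 members were present with 1 row each, and none was left out. Fasting was accompanied by a 10.6-fold higher level of Trim63 and a 6.87-fold higher level of Fbxo32 in skeletal muscle. In brown adipose tissue Fbxo31 was the member with the highest fold, at 9.19, and Mstn was not called in any tissue.

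Gene expression was read by short-read sequencing in 16 libraries from 8 tissues (muscle, heart, brown adipose, white adipose, liver, kidney, lung and spleen), with 1 fed and 1 fasting library per tissue. The mice were males of the inbred strain C57BL/6, bought at 12 weeks of age, and the labels name no transgene or deletion. The fed group had standard chow at will, and the fasting group had no food for 24 h before tissue was taken. Each group held 3 mice, whose tissue was pooled before RNA extraction, so a fold change compares 2 libraries and carries no replicate error.

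Levels are given as CPM, the counts of a gene scaled to a common library total. A gene was called within a tissue where the log2 fold change, fasting over fed with 0.01 CPM added to both, exceeded 0.5 in size and Fisher's exact test on the counts of the 2 libraries gave an unadjusted p under 0.01. A call is thus a statement about a pair of libraries and not about the conditions. Intervals are 95% intervals of counting error alone, and the variation between mice cannot be read from them. Library totals lay between 14245178 and 36069968 counts, so that 3 counts, taken as the floor, were worth 0.0832 to 0.211 CPM. In bulk tissue, fewer cells of a type and less RNA per cell cannot be told apart.

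Muscle protein is broken down during fasting in large part by the ubiquitin-proteasome system, in which an E3 ligase marks a chosen protein with ubiquitin. The F-box proteins are the parts of SCF ligases that bind the substrate, and FBXO32 (atrogin-1, MAFbx), FBXO30 (MUSA1) and FBXO21 (SMART) are known as atrophy ligases of muscle, while FBXO31 is best known for cell cycle substrates. TRIM63 (MuRF1) is a RING finger ligase of the sarcomere that acts on myosin and other thick filament proteins. Myostatin is a secreted ligand of the TGF-beta family that restrains muscle growth through activin receptors and Smad proteins. FoxO factors, which insulin signalling holds out of the nucleus, and the glucocorticoid receptor are known to drive transcription of Trim63 and Fbxo32.

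The table of counts places the members on GRCm38 as follows. Fbxo32 (ENSMUSG00000022358.7) lies at chr15:58175879-58214932 on the minus strand, and Trim63 (ENSMUSG00000028834.13) at chr4:134315120-134329629 on the plus strand. Fbxo30 (ENSMUSG00000047648.13) lies at chr10:11281330-11298052 on the plus strand, Fbxo31 (ENSMUSG00000052934.14) at chr8:121549440-121578806 on the minus strand and Fbxo21 (ENSMUSG00000032898.9) at chr5:117976730-118010201 on the plus strand. Mstn (ENSMUSG00000026100.6) lies at chr1:53061640-53068079 on the plus strand. Fbxo32 shares 186 exon bases with the antisense gene Gm15943, which held 0 to 18 counts per library. The other members share no exon base with another gene.

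Promoters are shown because FoxO factors and the glucocorticoid receptor bind DNA near Trim63, the member with the highest fold in muscle. Each window runs from 250 bases before to 50 bases after the gene's start in RefSeq on GRCm38.p6, written 5′ to 3′ on the gene's strand, and 5 of the 6 members had an entry (Fbxo32 not). The letters searched on both strands were TGTTTAC for the FoxO core, GNACA, any 3 bases and TGTNC for a loose glucocorticoid response element, CAGCTG for a myogenic E-box, and CTA, any 4 bases and TAG for a loose MEF2 box. Matches are in capitals. Trim63 covers chr4:134314870-134315169, Fbxo31 chr8:121578757-121579056 and Mstn chr1:53061390-53061689.
Trim63: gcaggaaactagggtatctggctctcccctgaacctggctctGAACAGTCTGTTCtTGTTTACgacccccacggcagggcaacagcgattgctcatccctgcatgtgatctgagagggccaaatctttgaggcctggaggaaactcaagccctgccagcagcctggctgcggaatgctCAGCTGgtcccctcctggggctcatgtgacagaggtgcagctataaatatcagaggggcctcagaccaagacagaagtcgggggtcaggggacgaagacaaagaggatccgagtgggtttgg
Fbxo31: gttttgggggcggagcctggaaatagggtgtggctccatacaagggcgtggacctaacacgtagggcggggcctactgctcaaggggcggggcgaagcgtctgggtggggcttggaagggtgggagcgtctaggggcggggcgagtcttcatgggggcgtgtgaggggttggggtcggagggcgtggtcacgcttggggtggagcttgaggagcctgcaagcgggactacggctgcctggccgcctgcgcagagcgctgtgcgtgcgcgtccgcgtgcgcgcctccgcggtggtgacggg
Mstn: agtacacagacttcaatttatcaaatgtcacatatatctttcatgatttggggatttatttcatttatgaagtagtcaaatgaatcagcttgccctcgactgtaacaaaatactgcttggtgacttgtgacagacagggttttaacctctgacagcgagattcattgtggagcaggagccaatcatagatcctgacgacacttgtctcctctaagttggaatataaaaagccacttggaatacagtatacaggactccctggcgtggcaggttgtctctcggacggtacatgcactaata

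The Trim63 window held 3 matches that do not overlap. A glucocorticoid response element, GAACAGTCTGTTC, lay at chr4:134314912-134314924, 208 to 196 bases before the start. The FoxO core followed at chr4:134314926-134314932, 194 to 188 bases before the start, and an E-box lay at chr4:134315048-134315053, 72 to 67 bases before it. Of 32851 mouse promoter windows of the same length, 3.65% held the FoxO core, 0.475% the glucocorticoid response element, 16.3% the E-box and 3.69% the MEF2 box. A FoxO core and a glucocorticoid response element stood together in 5 windows, or 0.0152%, Trim63 among them. This joint share is close to the product of the single shares of the FoxO core and the glucocorticoid response element. The windows of Fbxo30, Fbxo31, Fbxo21 and Mstn held none of these letters, which says nothing about sites elsewhere.

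**Figure D1:**
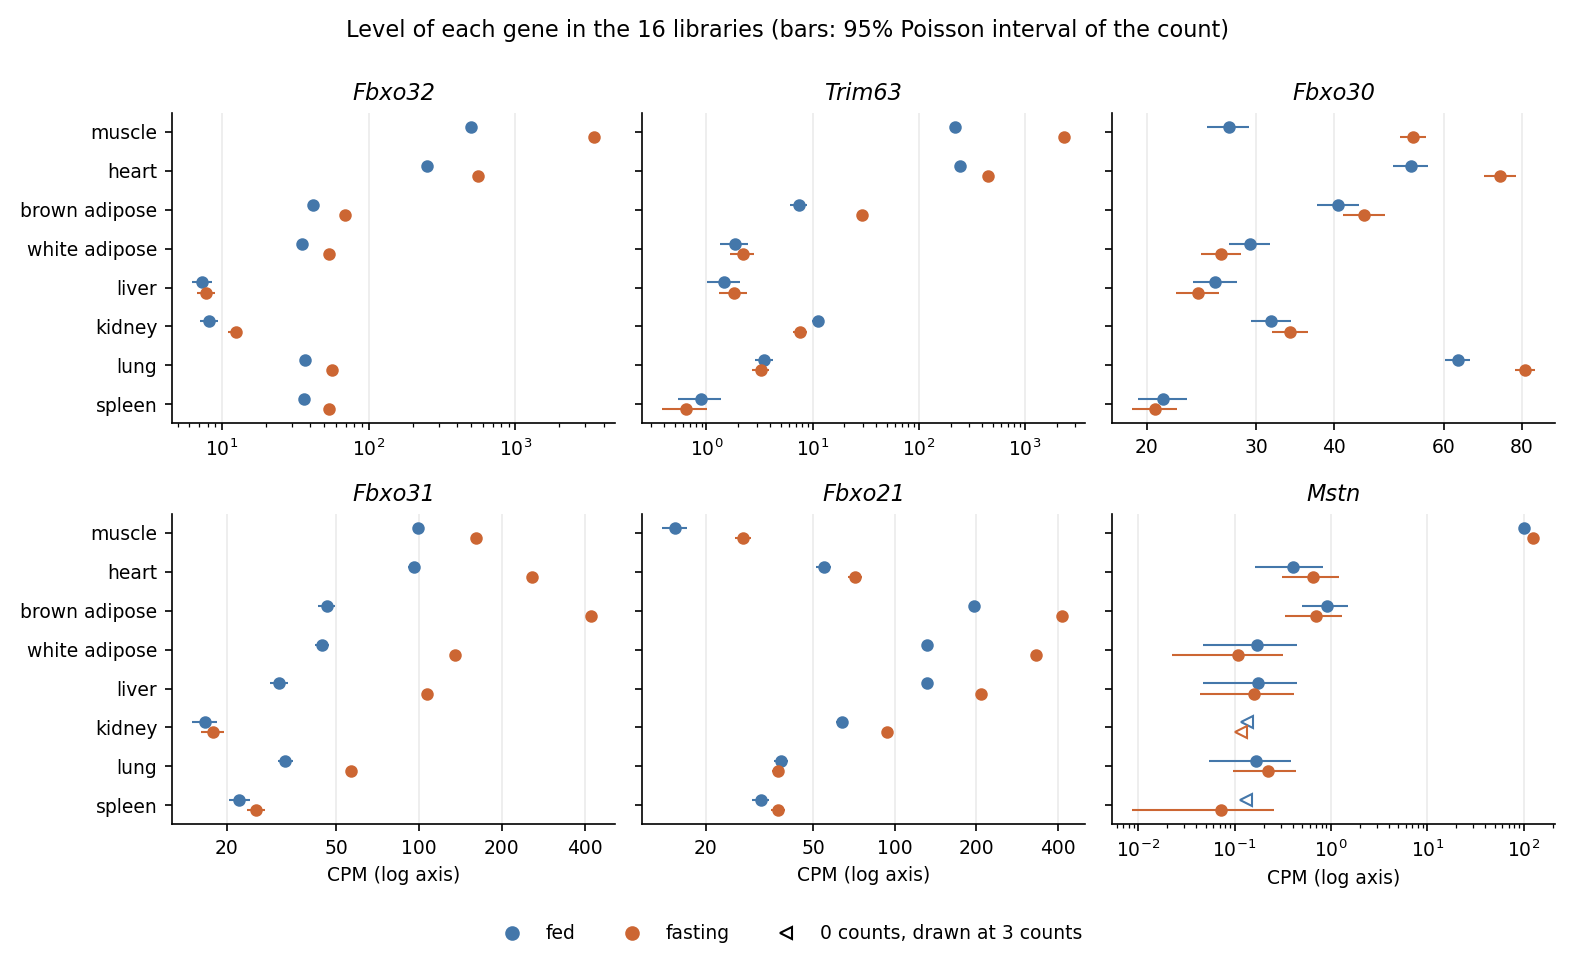
Level of each gene in CPM (log axis, a different range in each panel) in the fed (blue) and fasting (orange) library of each tissue; bars are the 95% Poisson interval of the count and open triangles mark 0 counts, drawn at the floor of 3 counts. Fbxo32 and Trim63 were highest in muscle and heart, Mstn stood apart in muscle at 101.2 and 126.1 CPM, and Fbxo21 was lowest in muscle.

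In skeletal muscle, 5 of the 6 members were called higher in the fasting library and none lower, against 4.42% of the 25604 genes with a count there (7.8% of those at 1 CPM or more). Among genes at 1 CPM or more the median value on this scale was -0.14. Trim63 and Fbxo32 stood far above the other 3 members that rose, Fbxo30, Fbxo21 and Fbxo31. Trim63, the sarcomere ligase, went from 222.6 CPM in the fed library to 2362 CPM in the fasting library. Its log2 fold change was 3.41, with a counting interval of 3.37 to 3.45. Fbxo32, the substrate receptor atrogin-1, went from 501.9 to 3445 CPM, a log2 fold change of 2.78 (2.75 to 2.81). Their fasting levels in muscle were the highest of all 16 libraries for either gene.

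The remaining ligases of muscle moved by less. Fbxo30 went from 27.08 to 53.59 CPM, a log2 fold change of 0.98 (0.85 to 1.12). With library totals, muscle was the only tissue in which Fbxo30 was called. Fbxo21 went from 15.37 to 27.6 CPM, a log2 fold change of 0.84 (0.67 to 1.02), and Fbxo31 from 99.56 to 160.9 CPM, a log2 fold change of 0.69 (0.62 to 0.76). Mstn was at 101.2 CPM in the fed and 126.1 CPM after fasting, a log2 fold change of 0.32 (0.24 to 0.39), under the size needed for a call. With a log2 fold change above 1 as the threshold, only Trim63 and Fbxo32 were called in muscle.

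The TPM scale divides the counts by exon length and then rescales each library to a common total. On this scale Trim63 was the most abundant member in muscle at both treatments. In the fed library it stood at 293 TPM, next to Fbxo32 at 269.1 TPM, and in the fasting library at 3167 TPM against 1882 TPM. Mstn followed at 140 TPM fed and 177.6 TPM fasting, above Fbxo31 at 67.93 and 111.9 TPM. Fbxo30 (19.49 and 39.3 TPM) and Fbxo21 (10.37 and 18.97 TPM) were the least abundant. The order of the 6 genes was thus the same in both muscle libraries on the TPM scale.

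Some cell type markers also differed between the fed and fasting muscle libraries. The 10 fast skeletal muscle markers summed to 173300 CPM in the fed and 171600 CPM in the fasting library, with none of the 10 called. The 6 slow fibre markers summed to 324.9 and 120.7 CPM and were all called lower, their defining genes Tnnt1 going from 26.62 to 8.792 CPM and Tnni1 from 11.67 to 3.329 CPM. The adipocyte markers summed to 204.8 and 179.9 CPM with 3 of 5 called lower, Adipoq going from 16.07 to 6.788 CPM and Plin1 from 11.46 to 3.329 CPM, while Fabp4, the most abundant of them, was at 109.6 and 132.1 CPM and was not called. The satellite cell gene Pax7 went from 3.572 to 2.101 CPM, while Myf5 was at 1.786 and 1.358 CPM. Cardiomyocyte markers summed to 266.5 and 237.6 CPM, most of it Actc1, with 4 of 8 called lower (Myh6 from 23.55 to 14.74 CPM, Tnni3, Ryr2 and Pln). Smooth muscle markers summed to 110.2 and 93.93 CPM, with 1 of 4, Acta2, called lower. All slow fibre markers and some of the other lists were thus lower in the fasting library, and their part in the results on the members was not tested.

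In heart, 3 of the 6 members were called higher and none lower, against 4.33% of 26026 genes with a count (7.01% at 1 CPM or more). Fbxo31, Fbxo32 and Trim63 rose, in this order of size. Fbxo31 went from 95.73 to 258.2 CPM, a log2 fold change of 1.43 (1.35 to 1.52). Fbxo32 went from 249.7 to 556.2 CPM, a log2 fold change of 1.16 (1.10 to 1.21), and Trim63 from 244 to 456.1 CPM, a log2 fold change of 0.90 (0.85 to 0.96). In the fed state the heart and muscle libraries were thus close for Trim63, muscle being 1.08-fold higher in TPM and heart 1.10-fold higher in CPM. In the fasting state muscle was 5.18-fold higher in CPM.

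Fbxo30 and Fbxo21 were not called in heart. Fbxo30 was at 53.09 CPM fed and 73.73 CPM fasting, a log2 fold change of 0.47 (0.35 to 0.60). It was the member closest to the threshold, and the TMM factors of edgeR or the size factors of DESeq2 put it past it, at 0.53 in both. Fbxo21 was at 54.66 and 71.57 CPM, a log2 fold change of 0.39. Mstn had 7 counts in the fed and 10 counts in the fasting heart library, too few for a fold to be read.

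The cardiomyocyte markers of heart summed to 61930 CPM fed and 55290 CPM fasting, with 2 of 8 called, both lower. The defining genes Myh6 (30770 and 31100 CPM) and Tnni3 (4204 and 3814 CPM) were not called. The 2 called markers were Myl7, an atrial myosin light chain, which went from 14.52 to 0.9175 CPM, and Actc1, cardiac actin, which went from 10120 to 5489 CPM. Myh7, the slow cardiac myosin, went from 471.3 to 1879 CPM, a log2 fold change of 1.995, whereas the other 5 slow fibre markers were not called and the list summed to 14030 CPM in both heart libraries. Of the 10 fast skeletal muscle markers, 6 were called higher in heart, with Myh4 going from 111.9 to 202 CPM. The list summed to 2403 CPM fed and 2352 CPM fasting. Most of this sum was Ckm (1833 and 1703 CPM) and Acta1 (351.1 and 278.3 CPM), which were not called. The adipocyte markers summed to 374 and 832 CPM, nearly all of it Fabp4, which was called higher, with Cfd called lower (37 to 6 counts), while Adipoq was at 0.8713 and 0.2621 CPM and Plin1 at 0.5809 and 0.1311 CPM. The smooth muscle markers summed to 207.7 and 149.9 CPM, with 1 of 4, Acta2, called lower. The part of these differences in the results on Fbxo31, Fbxo32 and Trim63 was not tested.

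**Figure D2:**
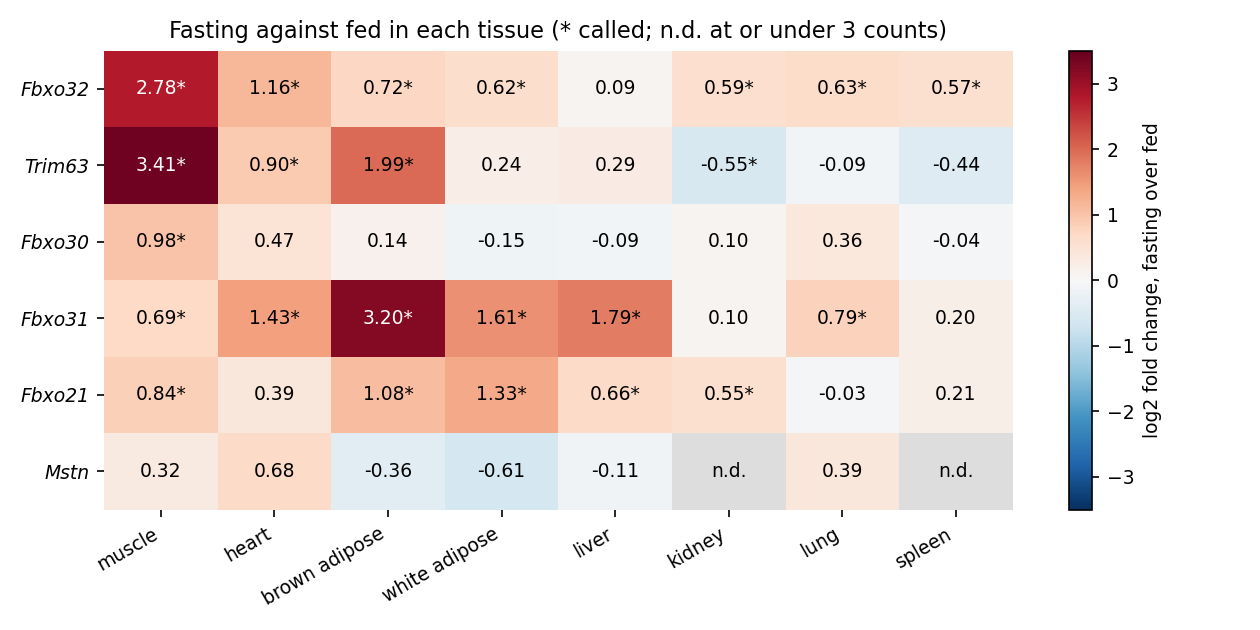
Log2 fold change, fasting over fed, of the 6 genes (rows) in the 8 tissues (columns), with an asterisk for called values and grey for Mstn in kidney and spleen, which had at most 2 counts. Fbxo32 was called in all tissues but liver, Trim63 was called higher in 3 tissues and lower in kidney, and Fbxo31 reached 3.20 in brown adipose.

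Brown adipose tissue, where fat is burned for heat, had 4 of the 6 members called higher and none lower, against 5.39% of 25808 genes with a count (8.68% at 1 CPM or more). Fbxo31 went from 46.12 to 423.9 CPM, a log2 fold change of 3.20 (3.09 to 3.31). This fasting level was the highest of Fbxo31 in the 16 libraries, 1.64-fold above the next, fasting heart, while among fed libraries the gene was highest in muscle, by 1.04-fold over heart. Trim63 went from 7.406 to 29.41 CPM, a log2 fold change of 1.99 (1.70 to 2.29). Fbxo21 went from 195.3 to 413.1 CPM, a log2 fold change of 1.08 (1.02 to 1.14), and Fbxo32 from 41.91 to 68.94 CPM, a log2 fold change of 0.72 (0.58 to 0.86). Fbxo30 was at 40.58 and 44.65 CPM and was not called.

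The adipocyte markers in brown adipose summed to 9977 CPM fed and 11040 CPM fasting, with a median log2 fold change of -0.16. The defining genes Adipoq (1115 and 997.7 CPM) and Plin1 (1259 and 927.8 CPM) were not called, and Cidec, from 704.5 to 1528 CPM, was the 1 of 5 called higher. The smooth muscle markers summed to 130.4 and 159.3 CPM, with 2 of 4 called higher. The part of these lists in the results on the members was not tested. Skeletal muscle transcripts were present in these libraries as well. The 10 fast muscle markers summed to 2992 CPM fed and 1377 CPM fasting, and all 10 were called lower, with the defining Myh4 going from 1272 to 662.7 CPM and Mylpf from 94.59 to 32.36 CPM. These markers were lower in the fasting library, and Trim63 and Fbxo32 were higher. For each 1000 CPM of these markers, Trim63 was at 2.475 CPM in the fed and 21.36 CPM in the fasting brown adipose library, a log2 ratio of 3.11, while in muscle it was at 1.284 and 13.76 CPM, a log2 ratio of 3.42. Fbxo32 was at 14.01 and 50.05 CPM for each 1000 CPM of markers in brown adipose (log2 ratio 1.84) and at 2.896 and 20.08 CPM in muscle (2.79). Mstn had 15 and 10 counts in brown adipose. Its log2 fold change of -0.36 (counting interval -1.68 to 0.89) turned to 0.76 for each 1000 CPM of markers, and the interval of the former includes 0. The 6 slow fibre markers fell more, from 112.3 to 18.81 CPM with all 6 called lower, so the size of such a ratio depends on the markers used. These ratios were chosen after the marker values were seen. The part of skeletal muscle transcripts in the brown adipose values of the members was not tested.

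**Figure D3:**
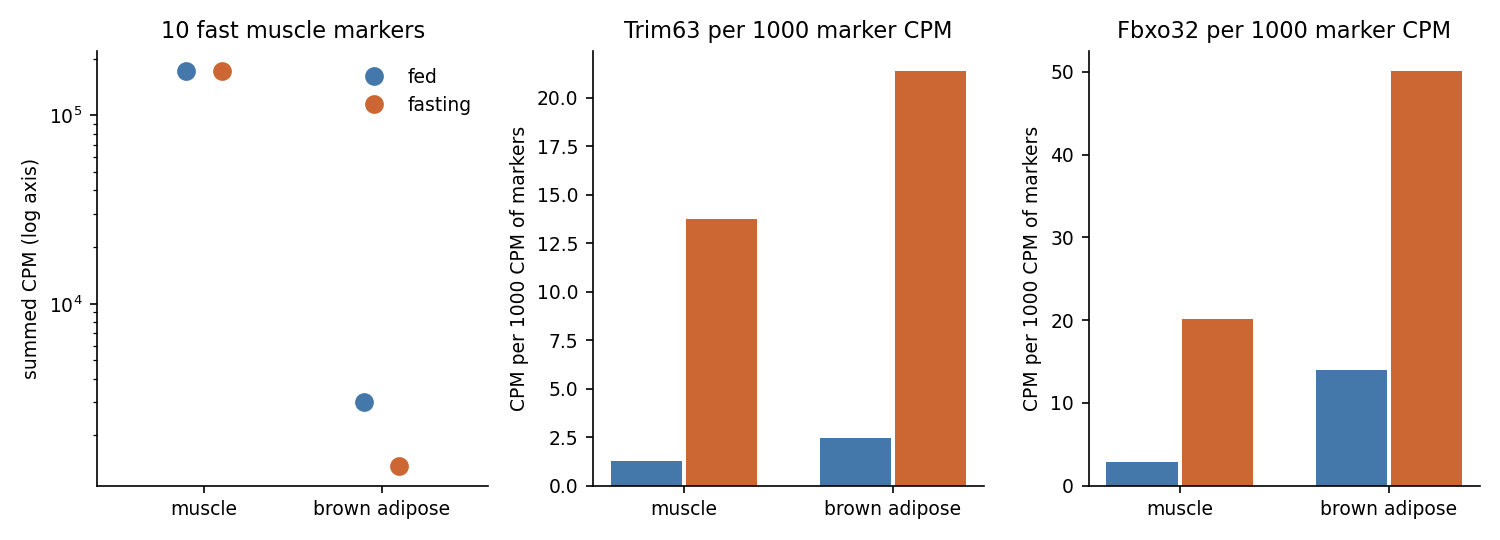
Left, summed CPM (log axis) of the 10 fast skeletal muscle markers in muscle and brown adipose; middle and right, bars of CPM of Trim63 and Fbxo32 for each 1000 CPM of these markers, fed (blue) and fasting (orange), 1 library per bar. The marker sum in brown adipose fell from 2992 to 1377 CPM while Trim63 for each 1000 CPM of markers was 2.475 fed and 21.36 fasting.

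In white adipose tissue, 3 of the 6 members were called higher and none lower, where 13.2% of 29956 genes with a count (19.8% at 1 CPM or more) were called higher. Fbxo31 went from 44.44 to 135.6 CPM, a log2 fold change of 1.61 (1.51 to 1.71). Fbxo21 went from 131.9 to 332 CPM, a log2 fold change of 1.33 (1.27 to 1.39), and Fbxo32 from 34.99 to 53.89 CPM, a log2 fold change of 0.62 (0.50 to 0.75). White adipose was thus the tissue where Fbxo21, the ligase SMART, had its largest fold. Trim63 was at 1.846 and 2.188 CPM, and Fbxo30 at 29.28 and 26.32 CPM. TMM factors lowered the value of Fbxo32 here to 0.52, which was still called. Of the 5 adipocyte markers, which summed to 20500 CPM fed and 19110 CPM fasting, Plin1 was called lower, from 2021 to 746.4 CPM, while Adipoq was at 2506 and 2247 CPM. The fast muscle markers summed to 219.7 and 282 CPM with 1 of 10 called higher, the cardiomyocyte markers to 9.703 and 12.21 CPM with 2 of 8 called higher and 1 lower, and the slow fibre markers to 1.116 and 2.953 CPM with 1 of 6 called higher. Their part in the results on the members was not tested.

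In liver, Fbxo31 and Fbxo21 were called higher and no member lower, against 4.46% of 25048 genes with a count (7.34% at 1 CPM or more). Fbxo31 went from 30.91 to 106.8 CPM, a log2 fold change of 1.79 (1.67 to 1.91), and Fbxo21 from 131.9 to 208.9 CPM, a log2 fold change of 0.66 (0.60 to 0.73). Fbxo32, at 7.337 and 7.812 CPM, had its lowest level in liver in both states, and liver was the tissue where it was not called (0.09, interval -0.21 to 0.40). Fbxo30 was at 25.75 and 24.16 CPM, a log2 fold change of -0.09 that became 0.03 with TMM factors. Trim63 was at 1.476 and 1.803 CPM. The adipocyte markers in liver summed to 36.6 and 143.7 CPM with 1 of 5 called higher, Cidec from 5.167 to 102.2 CPM, while Adipoq was at 3.56 and 4.086 CPM. Fast muscle markers were present in liver too, at 208 CPM fed and 181.4 CPM fasting, with Myh4 at 93.35 and 81.37 CPM and none of 10 called. The part of either list in the values of the members, Trim63 and Fbxo32 among them, was not tested.

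In kidney, Fbxo32 and Fbxo21 were called higher, against 2.77% of 27888 genes with a count, and Trim63 was called lower, against 3.93%. Fbxo32 went from 8.197 to 12.38 CPM, a log2 fold change of 0.59 (0.33 to 0.86), and Fbxo21 from 63.75 to 93.34 CPM, a log2 fold change of 0.55 (0.46 to 0.65). Trim63 went from 252 to 197 counts, or 11.23 to 7.643 CPM, a log2 fold change of -0.55 (-0.83 to -0.28). With TMM or DESeq2 factors this fall was -0.48 or -0.50 and was no longer called. The fast muscle markers summed to 13.59 and 9.854 CPM in kidney. Most of this was Pvalb, at 8.687 and 6.479 CPM, while Myh4 had 0.401 and 0.194 CPM, so the sum does not stand for muscle content. The adipocyte markers summed to 87.32 and 134.2 CPM with 2 of 5 called higher and 1 lower. The part of either list in the values of the members was not tested. Fbxo31 (16.62 and 17.77 CPM) and Fbxo30 (31.68 and 33.98 CPM) were not called, and with a log2 fold change above 1 no member was called in kidney.

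In lung, Fbxo31 and Fbxo32 were called higher, against 2.68% of 31101 genes with a count. Fbxo31 went from 32.67 to 56.61 CPM, a log2 fold change of 0.79 (0.68 to 0.90), and Fbxo32 from 36.56 to 56.72 CPM, a log2 fold change of 0.63 (0.53 to 0.74). Lung held the highest level of Fbxo30 in both states, 63.08 CPM fed and 80.87 CPM fasting, and the difference of 0.36 on the log2 scale was not called. Fbxo21 was at 37.89 and 37.01 CPM, a log2 fold change of -0.03 that became 0.04 with TMM factors. The 8 cardiomyocyte markers in lung summed to 1236 CPM fed and 652.1 CPM fasting, with 7 called lower. The slow fibre markers summed to 61.48 and 45.3 CPM with 3 of 6 called lower, and the fast muscle markers to 25.15 and 22.59 CPM with 3 of 10 called higher and 1 lower. The 5 adipocyte markers summed to 114.2 and 190.5 CPM, with 4 called higher, as were Fbxo31 and Fbxo32. The part of these lists in these values was not tested, and with a log2 fold change above 1 no member was called in lung.

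In spleen, Fbxo32 alone was called, from 36.03 to 53.39 CPM, a log2 fold change of 0.57 (0.44 to 0.69), against 2.31% of 29373 genes with a count. Fbxo21 was at 32.01 and 37.04 CPM, Fbxo31 at 22.21 and 25.55 CPM and Fbxo30 at 21.24 and 20.62 CPM. Trim63 had its lowest level here, at 20 and 18 counts. Spleen was thus the tissue with the fewest members called, and with a log2 fold change above 1 it had none. The smooth muscle markers in spleen summed to 270.7 and 177.8 CPM with 2 of 4 called lower, and the adipocyte markers to 9.713 and 18.61 CPM with 2 of 5 called higher. The part of these lists in the Fbxo32 value was not tested.

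Myostatin transcripts were found almost wholly in the muscle libraries. Outside muscle, Mstn had 15 counts or fewer in every library, and the muscle level was 112-fold above the next highest fed library, brown adipose, and 179.6-fold above it among fasting libraries. White adipose had 4 and 3 counts, liver 4 and 4, and lung 5 and 8. Kidney had 0 counts in both libraries, where the floor of 3 counts is 0.1337 CPM fed and 0.1164 CPM fasting and the 95% intervals reach 0.1643 and 0.1431 CPM, and spleen had 0 and 2 counts. No fold is given for kidney and spleen, where both libraries were under the floor.

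Across tissues, Fbxo32 was higher in the fasting library in 8 of 8 tissues and called in 7, with a median log2 fold change of 0.63. Fbxo31 was also higher in 8 of 8 tissues and was called in 6, with a median of 1.11. Fbxo21 was higher in 7 of 8 tissues and called in 5, with a median of 0.61. Trim63 and Fbxo30 were each higher in 5 of 8, with medians of 0.27 and 0.12. Trim63 was called in 4 tissues, higher in 3 and lower in 1, and Fbxo30 in 1. With a log2 fold change above 1 as the threshold, Fbxo31 was called in 4 tissues, Fbxo32, Trim63 and Fbxo21 in 2 each and Fbxo30 in 0, and differences in breadth between the ligases were not tested.

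All 16 libraries were fitted together by the quasi-likelihood test of edgeR, with a term for tissue, to ask which members differed with fasting beyond the scatter between tissues. Of 17296 genes tested, 400 were called higher (2.31%) at a Benjamini-Hochberg adjusted p under 0.05 and 359 lower. Fbxo21 and Fbxo31 were called higher, with Fbxo21 at a log2 fold change of 0.67 (SE 0.13, adjusted p = 0.0255) and Fbxo31 at 1.26 (SE 0.30, adjusted p = 0.0455). Fbxo32 had 0.92 (SE 0.25) with an adjusted p of 0.0638, Trim63 0.87 (SE 0.44) with an adjusted p of 0.260 and Fbxo30 0.26 (SE 0.13) with an adjusted p of 0.241 by the same test. Thus the pair with the largest folds in muscle was not called over the 8 tissues, between which their folds spread most widely for Trim63. Mstn did not pass the filter on low counts, so 5 of the 6 members were tested. All 8 tissues were taken from the same 2 sets of pooled animals, so they are no independent replicates.

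Calls changed when a tissue was left out, while the fold changes of Fbxo21 and Fbxo31 kept their direction. Without heart they were 0.71 (adjusted p = 0.0544) and 1.22 (adjusted p = 0.107) by edgeR, and no member was called. Without brown adipose they were 0.61 (adjusted p = 0.0696) and 0.9995 (adjusted p = 0.0629), and again no member was called, as the genes called in all fell from 759 to 175 and 156. Without muscle the fold changes of Trim63 and Fbxo30 were lower, at 0.46 and 0.14, and only Fbxo32 was called, at 0.66 (adjusted p = 0.0291), and without liver, lung or white adipose only Fbxo21. Fbxo32 was called without the filter (adjusted p = 0.0382) and by the Wald test of DESeq2 (adjusted p = 0.00639).

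**Figure D4:**
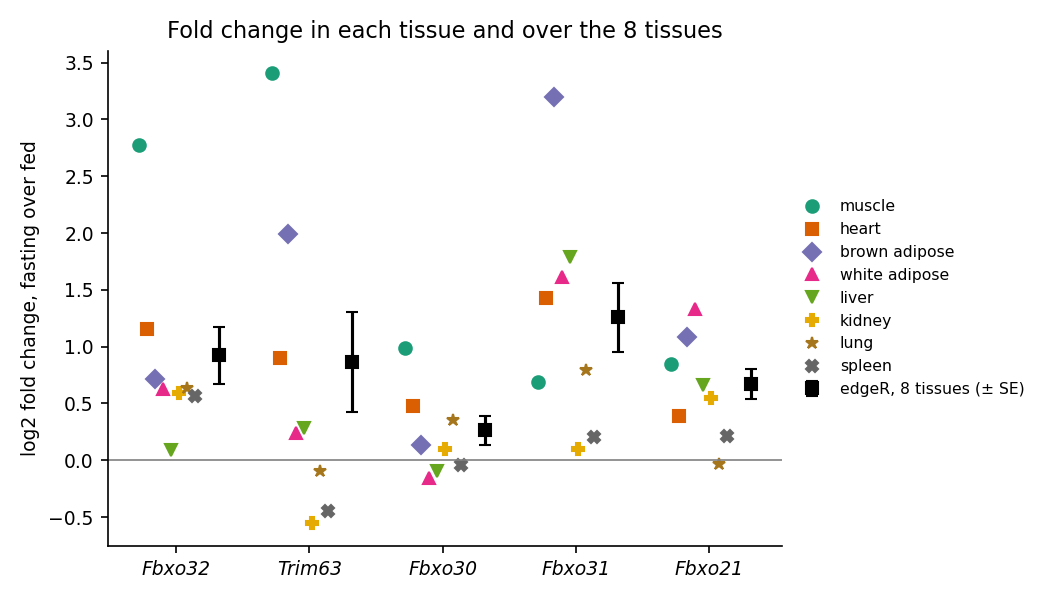
Log2 fold change, fasting over fed, of the 5 ligase genes in each tissue (coloured symbols, 1 pair of libraries each) and over the 8 tissues in the edgeR fit (black squares, bars ± 1 SE). Fbxo32 and Trim63 have muscle far above their other tissues, and Fbxo31 has brown adipose at 3.20.

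Whether the fasting difference in muscle and heart differed from that in the other 6 tissues was tested by an interaction term in edgeR. No gene of 17296 was called at an adjusted p under 0.05, with 1453 genes at an unadjusted p under 0.05, whereas DESeq2 called 127. For Fbxo32 the difference between the tissue groups was 1.46 on the log2 scale (SE 0.38) with an adjusted p of 0.361 by edgeR and of 0.0233 by DESeq2. For Trim63 it was 1.90 (SE 0.79, adjusted p = 0.563) and for Fbxo30 0.71 (SE 0.20, adjusted p = 0.422) by edgeR. Fbxo31 and Fbxo21 had -0.17 (adjusted p = 0.981) and 0.01 (adjusted p = 0.999). With muscle alone set against the other 7 tissues, 9 genes were called by edgeR, and Fbxo32 had 2.204 (SE 0.32) with an adjusted p of 0.0622. On this contrast Trim63 had 3.05 (adjusted p = 0.333) and Fbxo30 0.93 (adjusted p = 0.423) by edgeR. With heart alone set against the other 7 tissues, muscle among them, the differences were 0.33 for Fbxo32, 0.11 for Trim63 and 0.30 for Fbxo30. Muscle alone and heart alone are each 1 pair of libraries, assumed to vary like the others. A larger effect in striated muscle was therefore not called for any member by edgeR.

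Over the 16 libraries, levels of Trim63 and Fbxo32 had a Pearson's r of 0.86 on the log2(CPM + 1) scale, as a description of libraries that share tissues and pools. The genes most like each member in level were found among 21935 genes. For Fbxo32 these were Zfand5 (r = 0.958), which encodes a zinc finger protein that binds ubiquitin, Dym (0.950) and Paip2b (0.944). For Trim63 they were the muscle phosphofructokinase gene Pfkm (0.964), Asb11 (0.955) and Nrap (0.952). Fbxo21 was most like Pex13 (0.935), Chp1 (0.925) and Inca1 (0.918), and Fbxo30 most like Crnde (0.861), Irx5 and Tbx5 (0.854 each). For Fbxo31 the r values were lower, with BB123696 (0.832), Gm16439 (0.829) and Gm43136 (0.818) first. Mstn was most like the acetylcholine receptor gene Chrna1 (0.997), Cacng1 (0.997) and Myf6 (0.996). Since Mstn transcripts were almost wholly in the muscle libraries, its r values mostly reflect the contrast of muscle with the other tissues. The rankings depended on the measure. With Spearman's rho, the first 3 genes shared 2 with those above for Fbxo32, 1 each for Trim63, Fbxo30, Fbxo31 and Fbxo21, and 0 for Mstn. With a pseudocount of 0.01 they shared 3 for Fbxo32, 2 each for Trim63, Fbxo31 and Fbxo21, 1 for Fbxo30 and 0 for Mstn.

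Some of the other ubiquitin genes of muscle wasting rose in muscle and heart as well. Of 26 such genes at 1 CPM or more in muscle, 8 were called higher and 1 lower, with a median log2 fold change of 0.18. Of all muscle genes at this level, 7.8% were called higher and 16.4% lower, and these shares and the median of -0.14 are the background for each list in muscle. In heart the shares were 7.01% and 9.65%, with a median of -0.07. The largest rises were those of Ube4a, a ubiquitin chain assembly factor, from 45.65 to 158.3 CPM (1.79), and of Zfand5, from 374.6 to 1014 CPM (1.44). The gene that fell was Trim55, a close relative of Trim63 in the sarcomere, from 44.98 to 30.55 CPM (-0.56). In heart, 4 of 26 were called higher and 2 lower, with a median of 0.12. Ubr2, a ligase of the N-end rule, went from 157.4 to 268.5 CPM (0.77) and the ubiquitin gene Ubb from 233.3 to 383.3 CPM (0.72), while Trim55 fell from 70.05 to 42.86 CPM (-0.71) and Asb2 from 604.8 to 413.9 CPM (-0.55). Trim55 was thus lower in muscle and heart, where Trim63 was higher.

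The shared core of the SCF ligases, to which the F-box proteins dock, moved little. Of its 9 genes, none was called higher in muscle or heart, and 1 was called lower in muscle, Dcun1d1, from 54.78 to 34.78 CPM (-0.66). The median log2 fold change of the 9 was -0.16 in muscle and -0.19 in heart, near the -0.14 and -0.07 of all genes at 1 CPM or more.

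In muscle, 3 of 13 known upstream regulators of the atrophy ligases were called higher and 4 lower, with a median of 0.20, where 7.8% of all genes were called higher and 16.4% lower. Foxo1 went from 17.11 to 61.09 CPM (1.84) and Foxo3 from 37.75 to 113.1 CPM (1.58). The third was Klf15, a target of the glucocorticoid receptor, from 35.18 to 85.01 CPM (1.27). The genes called lower were Foxo6, from 6.396 to 1.584 CPM (-2.01), Smad3, from 137.1 to 44.19 CPM (-1.63), the coactivator gene Ppargc1a (-0.98) and Dach2 (-0.87), the last pair named after their values were seen. In heart, Foxo3 (0.81), Klf15 (0.85) and the cytokine receptor gene Tnfrsf12a (0.94) rose and Foxo6, Smad3 and the glucocorticoid receptor gene Nr3c1 (-0.54) fell. Foxo6 had 63 counts fed and 3 counts fasting in heart. In brown adipose, where 8.68% of all genes at 1 CPM or more were called higher and 12.2% lower, 4 of 10 rose and none fell, Foxo3 from 38.96 to 109.7 CPM (1.49) among them. Of the 13 regulators, 11 passed the filter of the edgeR fit over the 8 tissues, in which 2.31% of all genes were called higher. The fit called 2 of them, Foxo3 (0.88, adjusted p = 0.0192) and Klf15 (0.94, adjusted p = 0.0107), both higher. How these calls depend on single tissues was not tested.

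Among genes of myostatin signalling in muscle, the counts of calls were small. Of 14 other ligands, inhibitors and processing genes, 2 were called higher and 2 lower, near the shares of 7.8% and 16.4% of all genes. Inhbb, an activin subunit, went from 1.246 to 3.038 CPM (1.28) and the protease gene Furin from 43.61 to 62.26 CPM (0.51), while Fstl1, a follistatin-like gene, fell from 77.88 to 39.95 CPM (-0.96) and Gdf11, the closest relative of Mstn, from 15.74 to 9.018 CPM (-0.80). Of 11 receptors and Smads, 1 was called higher and 3 lower, with a median of -0.29. The type I receptor gene Acvr1b went from 50.51 to 111.6 CPM (1.14), Acvr1c from 5.233 to 2.166 CPM (-1.27) and Smad3 from 137.1 to 44.19 CPM (-1.63), and Skil, an inhibitor of Smads named after its value was seen, had -0.65. Acvr2b, the main type II receptor of myostatin, was at 17.94 and 14.64 CPM and was not called.

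The competing BMP branch had 1 of 12 genes called higher in muscle, Bmpr1b (0.54), and 2 lower, Acvr1 (-0.67) and Smad6 (-0.57), shares like the 7.8% and 16.4% of all genes there. In heart, 13 ligands, inhibitors and processing genes of the myostatin group had 2 called higher and 1 lower. These were the inhibitor genes Fstl3, from 3.079 to 7.733 CPM (1.33), and Wfikkn2, from 8.539 to 16.06 CPM (0.91), and Igsf1, from 27.01 to 13.57 CPM (-0.99). Among heart receptors and Smads 1 of 10 was called, Smad3 (-0.51), and in the BMP branch 1 of 11, Bmp7, from 40 to 9 counts (-1.96). Smad3 was thus the member of these groups called lower in both striated tissues.

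Transcripts of proteins reported as substrates of Fbxo32 and Trim63 were followed as a last group, at the RNA level only. In muscle, 5 of 16 were called lower and none higher, against 16.4% and 7.8% of all genes, and their median of -0.17 was close to the -0.14 of all genes. Myod1, the myogenic factor bound by atrogin-1, went from 14.37 to 2.812 CPM (-2.35) and the slow myosin gene Myh7 from 106.2 to 36.46 CPM (-1.54). The other 3 were Myl2, Myh2 and Tnni3, also genes of slow, oxidative or cardiac fibres. In heart, 3 of 15 were called higher (all genes 7.01%), Myh7 (1.995), Myh4 (0.85) and Myh1 (0.70), and none lower. In brown adipose, 10 of 12 were called lower (all genes 12.2%), with a median of -1.27, beside the fall of all 10 fast muscle markers there.

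**Figure D5:**
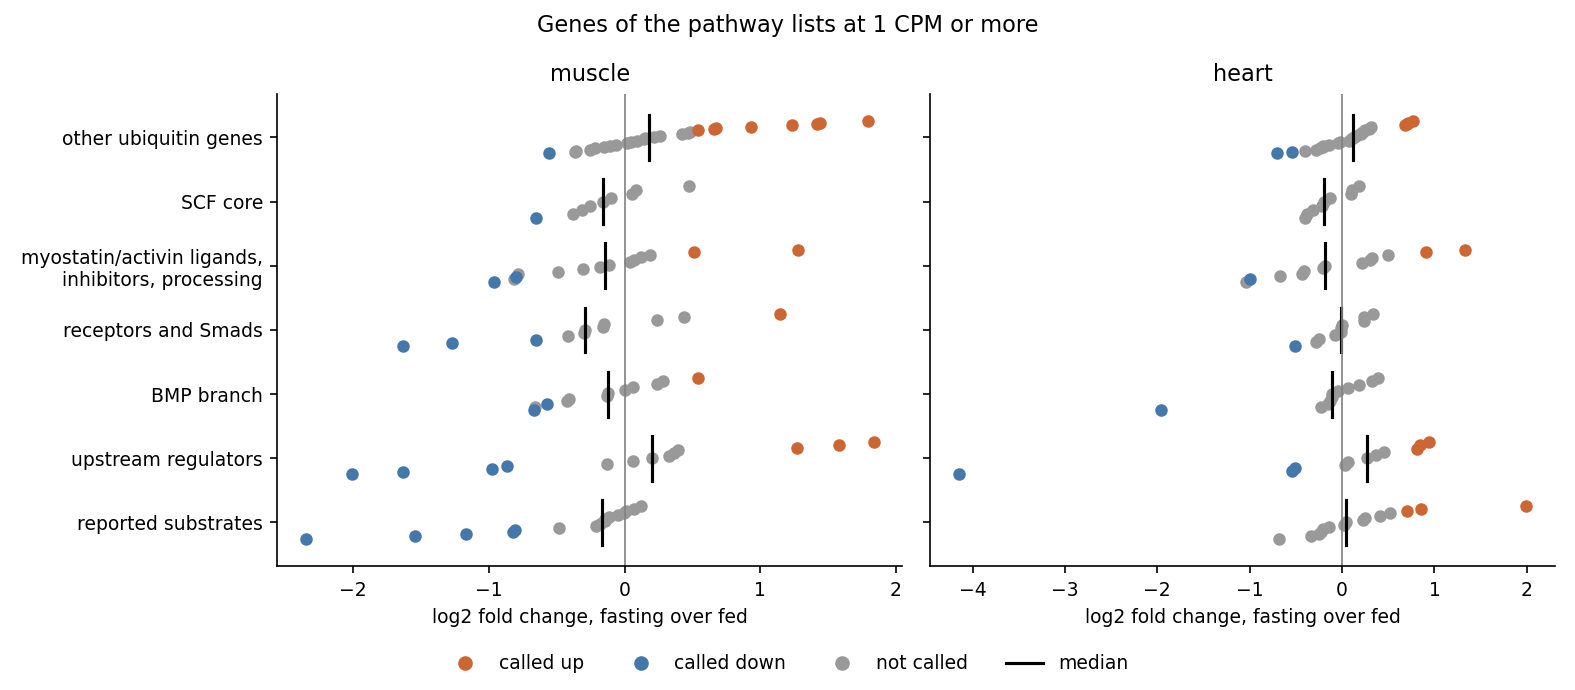
Log2 fold change, fasting over fed, of the genes of each pathway group at 1 CPM or more in muscle (left) and heart (right), 1 point per gene, orange for called higher, blue for called lower, grey for not called, black line for the group's median. Group medians lay between -0.29 and 0.27, and the largest folds among these genes in muscle were those of Foxo1 and Ube4a on the high side and Myod1 on the low side.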

How the data were processed

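Short-read RNA-Seq was available for 16 libraries, 1 per tissue and treatment, each from tissue of 3 pooled mice. By their methods, the authors made strand-specific libraries, read them as paired ends of 100 bases, trimmed with fastp 0.23.2, checked with FastQC 0.11.8, aligned with HISAT2 2.2.1.0 to GRCm38 and counted per gene with featureCounts (Subread 2.0) on GENCODE mouse release 24. They deposited raw counts per gene and library with the exon length of each gene (an other value, used for TPM only). The counting unit (reads or pairs of reads) and the strand setting are not given in the sources used here, so reads of Fbxo32 and its antisense gene may not be told apart. The 37 mitochondrial genes had 0 counts in all libraries.

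Symbols were taken from GENCODE release 21 by identifier without version, for 55144 of 55385 genes. Library totals lay between 14245178 and 36069968. CPM used library totals, and each gene with a count was compared between the 2 libraries by a two-sided Fisher's exact test as in the study's methods, with a log2 fold change above 0.5 and an unadjusted p under 0.01 as the call. Since each group is 1 library, no Fisher p is printed. A joint model of the 16 libraries was made in edgeR 4.0.16 (under R 4.3.3, with TMM, filterByExpr by treatment, quasi-likelihood test with Benjamini-Hochberg adjustment over 17296 genes), with 7 residual degrees of freedom and 6 with the interaction. DESeq2 1.42.0 was an alternative, and both steps were tested on simulated data. Scripts ran in Python 3.11.15 with scipy 1.17.1, pandas 2.3.3, numpy 2.4.6 and matplotlib 3.10.9. Intervals are exact 95% intervals and, like the floor of 3 counts, cover counting error only. Promoter windows came from RefSeq on GRCm38.p6.

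The members and the gene lists were chosen with earlier results of these data known. Genes named in the text are the 6 members, the 2 largest rises and falls per list in muscle or heart among called genes at 1 CPM or more, both defining markers of a marker list, and the 3 genes most like each member by Pearson's r. Genes outside this rule that complete a short count were named after their values were seen. Alternatives were a pseudocount of 1 CPM, TMM and DESeq2 factors, totals without the 10 highest genes, a log2 fold change above 1, adjusted Fisher p-values, an assumed coefficient of variation of 0.2 or 0.4 in edgeR, other filters, dispersions and designs of the fit, and each tissue left out. No column of the table went unused.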

Additional observations from a re-analysis of the deposited data

Results flagged for a closer look

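Trim63 was called in opposite directions in different tissues. Its log2 fold change, fasting over fed, was 3.41 in muscle, 0.90 in heart and 1.99 in brown adipose, where it was called higher, and -0.55 in kidney, where it was called lower. Each value compares 1 library with 1 other, and the difference between kidney and any 1 of these tissues was not tested. The kidney value rests on 252 and 197 counts and was not called with TMM factors (-0.48) or DESeq2 size factors (-0.50). For each 1000 CPM of fast muscle markers, a measure added after seeing the data, it was -0.09. In kidney, however, Pvalb made up 8.687 of the 13.59 CPM of markers fed and 6.479 of the 9.854 CPM fasting. Trim63 was at 826.2 CPM for each 1000 CPM of markers in fed kidney and at 1.284 CPM in fed muscle. The ratio therefore cannot be read as a correction for muscle content in kidney. The interaction of fasting with muscle and heart against the other 6 tissues had an adjusted p of 0.563 for Trim63 in edgeR. No group held enough libraries for a search for outlying samples.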

How the results depend on the processing

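Of the 46 values of a member in a tissue, 46 kept direction and call with a pseudocount of 1 CPM, without the 10 highest genes or with adjusted Fisher p-values, 41 with TMM or DESeq2 factors, 33 with a log2 fold change above 1 or an assumed coefficient of variation of 0.2, and 26 with one of 0.4. With TMM and DESeq2 factors, Fbxo30 in liver turned to 0.03234 and 0.03274, Mstn in liver to 0.007919 and 0.008142 and Fbxo21 in lung to 0.04286 and 0.04002. These factors also lifted Fbxo30 in heart past the call (0.5313 and 0.5261). For each 1000 CPM of muscle markers, a measure added after seeing the data, Mstn in brown adipose turned to 0.7556, Mstn in liver to 0.08113, Trim63 in lung to 0.05998 and Trim63 in white adipose to -0.1158. The fall of Trim63 in kidney was -0.09125 on this measure. Pvalb made up most of the marker sum in kidney, and Ckm was the largest part of it in lung. In these tissues the measure therefore need not stand for muscle content.

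With a log2 fold change above 1, or an assumed coefficient of variation of 0.2, the members called were 2 in muscle, 2 in heart, 3 in brown adipose, 2 in white adipose, 1 in liver and 0 in kidney, lung and spleen. With an assumed coefficient of variation of 0.4 they were 2 in muscle (Fbxo32 and Trim63), 1 in brown adipose (Fbxo31) and 0 in heart, white adipose, liver, kidney, lung and spleen.

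In the fit over the 8 tissues, where 2 members were called, 1 was called with the filter by the full design (added after seeing the data) and 0 with no tissue block, where 1 gene in all was called. With a tissue left out, 0 (without brown adipose or without heart) to 2 were called, with 1 each without liver, lung or white adipose (Fbxo21) or muscle (Fbxo32). Over all genes, 441 were called with the filter by the full design, 1832 by DESeq2, and 156 (without brown adipose) to 721 (without spleen) with a tissue left out. For the interaction, DESeq2 called 1 member, Fbxo32, where edgeR called 0. The interaction of Fbxo21 turned to -0.0251 with library totals alone and to -0.27 with heart alone, and that of Fbxo31 to 0.2585 with heart alone and 0.1992 without brown adipose. The cause was not tested for any of these.

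No paired analysis by replicate number was possible because each tissue and treatment had 1 library and the labels gave no replicate numbers. The tissue term of the fit over the 8 tissues pairs the fed and fasting library of each tissue. Depth limits Mstn outside muscle, where 15 counts or fewer were seen per library, and Trim63 in spleen. Pooling of 3 mice leaves variation between animals unmeasured.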
